A study of Mus musculus with 2 samples.

Results

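The 10 genes described here encode enzymes of glycolysis and of its erythroid side branch. They are Hk1, Hk2, Gpi1, Aldoa, Tpi1, Pgk1, Bpgm, Eno1, Pklr and Pkm, chosen by symbol from the 27998 genes of the count matrices, and all 10 were found. The question was which isozyme each liver cell population used and how the 10 genes varied along erythroid differentiation.

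The cells came from the liver of a wild-type C57BL/6 mouse embryo at E12.5 and were counted by droplet scRNA-seq. The extraction protocol names 1 liver, split into 2 technical replicate libraries, while the series design text mentions 2 suspensions. There was no treated or mutant group, and with 1 liver no test between animals was possible, so no p-value is given and differences are set against both libraries and the counting error. Populations were taken from the deposited cell table: HSPC (hematopoietic stem and progenitor cells, spelled HPSC there), Ery 1 to Ery 6 (subclusters of erythroid-committed progenitors and erythroblasts), EryP (primitive erythroblasts), Mk (megakaryocytes), G (granulocytes), Mo/KC (monocytes and Kupffer cells), EC (endothelial cells) and Hepa (hepatoblasts). Ery 1 and Ery 2 make up the type Ery, and Ery 3 to Ery 6 the type Eryb.

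The subclusters had been made from these same counts, so a contrast between them is a description. UMIs (molecular identifiers, each marking a captured RNA molecule) were summed per population and library and scaled to 1000000 UMIs, giving CPM. Over its kept cells, library 1 had 51969226 UMIs (median 6261 per cell) and library 2 had 62738015 (median 9774). Intervals in parentheses are exact 95% confidence intervals and cover counting error only. Throughout, library 1 is given before library 2. The libraries differed in their smallest kept cell, with 504 and 4387 UMIs. The marker genes Slc4a1, Hba-x, Mpo, Csf1r, Pf4, Alb and Cdh5 were each highest in the type named for them in both libraries. Klf1 was higher in Eryb than in Ery in library 1, Gata1 was highest in Mk, and Myb was highest in G. The libraries shared 31 cell barcodes, against 37.6 expected if barcodes were independent.

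The libraries stood apart in 2 ways that touch these genes. Globin RNA made up 58.1% of the UMIs of Ery 6 in library 1 and 78.5% in library 2, which lowers the CPM of every other gene in library 2. For this reason levels are also given as CPM outside globin, with the adult and embryonic globin genes left out of the total. In Ery 6 the ratio of library 1 to library 2 for Bpgm was 1.91 (1.83 to 2.00) in CPM and 0.980 (0.937 to 1.02) outside globin. The corresponding ratios for Pklr in Ery 6 were 2.14 (1.88 to 2.44) and 1.10 (0.962 to 1.25). This did not hold for every member and subcluster: in Ery 3, Pklr stayed at 1.31 (1.22 to 1.40) outside globin, and Pkm went from 0.833 in CPM to 0.706 (0.626 to 0.797).

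The other difference concerns Pgk1 and Eno1. In Ery 1, Pgk1 had 186 CPM in library 1 and 5.60 in library 2, a 33.3-fold difference that ranked 3 of 2751 genes with a mean of at least 50 CPM. Eno1 had 769 and 142 CPM, a 5.42-fold difference that ranked 11. Over those genes, 1.45% differed more than 2-fold between the libraries and the median ratio was 1.04. The near-identical copies listed beside these genes, Pgk1-rs7 and Eno1b, were also higher in library 1, with 41 against 0 UMIs and with 16.9 against 1.18 CPM. What sets the libraries apart at these genes was not tested. Pgk1 and Eno1 are therefore given for each library on its own, and were summed only for the alternative settings described at the end.

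Glycolysis turns glucose into pyruvate and yields ATP. It is the only source of ATP in mature mammalian red cells, which lack mitochondria. Red cells also divert an intermediate through Bpgm to bisphosphoglycerate, which lowers the oxygen affinity of hemoglobin. Several steps have isozymes from different genes: Hk1 and Hk2 start the pathway by phosphorylating glucose, and Pklr and Pkm end it by making pyruvate. Pklr is known as the pyruvate kinase of red cells and liver, while Pkm is the form of most proliferating cells.

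Along the erythroid subclusters most glycolytic genes took a smaller share of the RNA, Bpgm took a larger one, and pyruvate kinase changed from Pkm to Pklr. Of the 10 members, 8 reached a mean of 10 CPM over Ery 1 to Ery 6 in each library. Hk2 did not because of its low level, and Pgk1 did not because of its low counts in library 2. In CPM, 6 of the 8 were over 2-fold lower in Ery 6 than in Ery 1 in both libraries (Hk1, Gpi1, Aldoa, Tpi1, Eno1 and Pkm), where 73.4% of all 4875 genes that passed the same filter were lower. Bpgm was the member over 2-fold higher, where 5.99% of all genes were higher, and Pklr was past neither limit.

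With globin RNA taking a growing share of the total, the median gene was also lower in CPM, with a log2 ratio of -2.34 in library 1 and -3.25 in library 2. Outside globin this median was -1.10 and -1.07. On that scale Gpi1, Aldoa, Tpi1, Eno1 and Pkm were over 2-fold lower (background 49.7%), Bpgm and Pklr over 2-fold higher (background 17.5%), and Hk1 past neither limit. The median of the 8 members was -1.83 and -1.73. Counted per cell, 7 of the 8 were over 2-fold lower and Bpgm over 2-fold higher, where 92% of all genes were lower and 2.07% higher. The lower share of most members was thus common among the genes measured, while the direction of Bpgm was uncommon on each of the 3 scales.

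**Figure D1:**
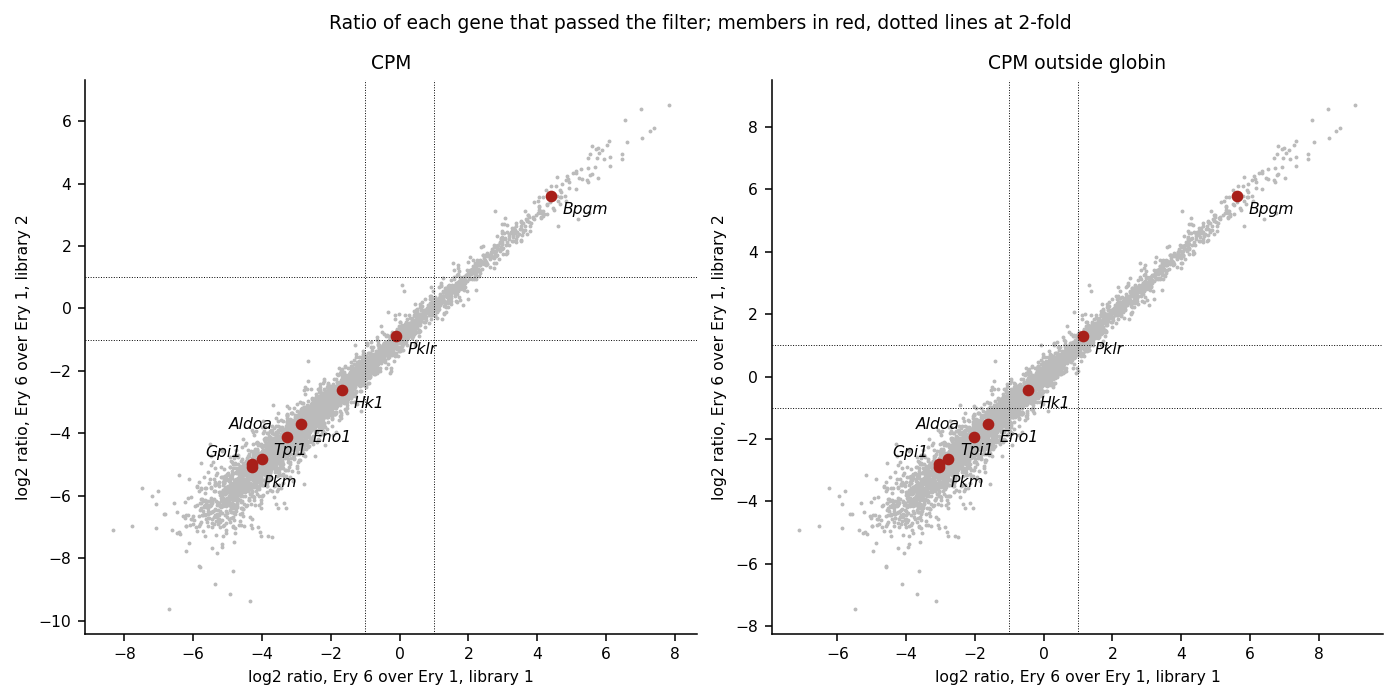
Log2 ratio of Ery 6 over Ery 1 in library 1 (horizontal) and library 2 (vertical), in CPM on the left and CPM outside globin on the right, for the genes that passed the filter and had UMIs in each (grey) and the 8 members among them (red). Dotted lines mark a 2-fold difference. Bpgm lies far above the 2-fold lines on both scales, Pklr passes them only outside globin, and Pkm and Gpi1 are the lowest members.

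**Figure D2:**
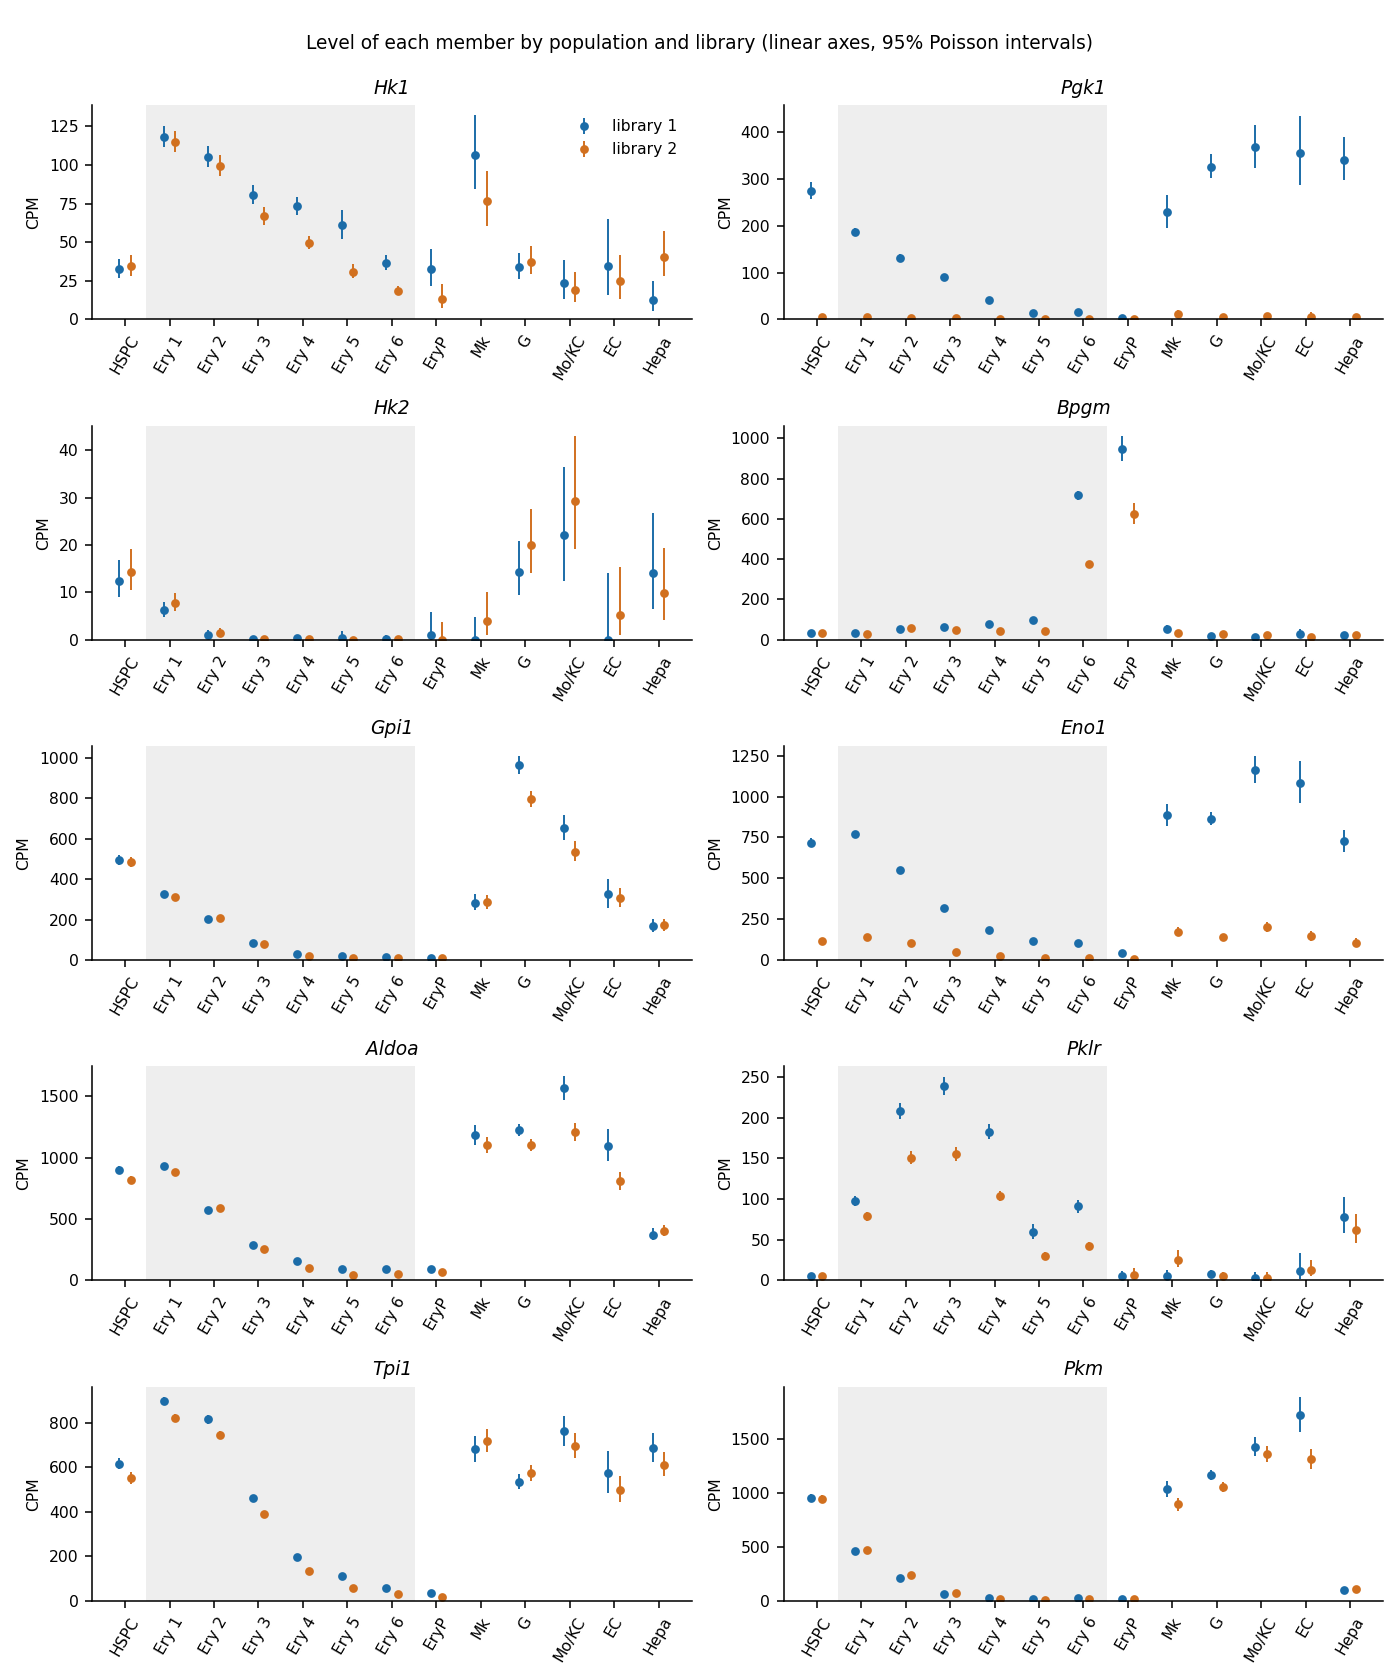
CPM of each member (vertical axes, linear, from 0) in 13 populations, as a point per library with its exact 95% Poisson interval, and with Ery 1 to Ery 6 shaded. Most members decline from Ery 1 to Ery 6, Pklr is highest at Ery 3, Bpgm is highest in Ery 6 and EryP, and Eno1 and, outside EryP, Pgk1 differ between the libraries.

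Hexokinase use in the erythroid populations was almost entirely Hk1 (chr10:62268855-62379920, GRCm38, RefSeq). Hk1 had 32.5 and 34.6 CPM in HSPC and 118 and 115 CPM in Ery 1, which is 3.64-fold (2.996 to 4.46) and 3.33-fold (2.73 to 4.10) higher. Hk2 (chr6:82725025-82774454) had 12.47 and 14.4 CPM in HSPC and 6.28 and 7.86 CPM in Ery 1. The Hk1 share of Hk1 and Hk2 UMIs was therefore 72.3% (64.5 to 79.1) and 70.6% (62.7 to 77.7) in HSPC, and 94.96% (93.6 to 96.1) and 93.6% (92.0 to 94.96) in Ery 1. The intervals of HSPC and Ery 1 did not overlap in either library.

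From Ery 2 onward the Hk1 share stayed between 98.6% and 100%, and in Ery 6 it was 99.5% (97.4 to 100) and 98.9% (96.2 to 99.9). Hk2 gave 10 and 12 UMIs in Ery 2 and at most 3 in any later subcluster and library. For its 0 UMIs in Ery 5 of library 2, a floor of 3 counts corresponds to 0.512 CPM, and the exact upper limit is 0.630 CPM. Free RNA itself had a Hk1 share of 94.4% (88.7 to 97.7) and 96.4% (91.0 to 99.0). The level of Hk1 depended on the scale: in CPM it was 36.7 and 18.7 in Ery 6, 3.22-fold and 6.17-fold below Ery 1, whereas outside globin it was 119 and 118 in Ery 1, 125 and 116 in Ery 5, and 87.5 and 86.8 in Ery 6. Relative to the other RNA of the cell, Hk1 was thus among the best kept members until Ery 5, with a lower value in Ery 6 in both libraries.

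Outside the erythroid line, Mk resembled it in hexokinase use, with a Hk1 share of 100% (95.6 to 100) and 95.1% (88.0 to 98.7) and 106 and 76.9 CPM of Hk1. Myeloid cells used a mixture, with Hk1 shares of 70.3% (59.8 to 79.5) and 65.1% (55.4 to 74.0) in G and 51.6% (33.1 to 69.8) and 39.5% (25.0 to 55.6) in Mo/KC. There a further hexokinase gene, Hk3, added much of the signal. Hk3 held 55.4% and 48.8% of the UMIs of the 3 genes in G and 49.2% and 39.4% in Mo/KC, against 0.244% and 0.175% in Ery 1. In Hepa the libraries disagreed, with a Hk1 share of 47.1% (23.0 to 72.2) over 17 UMIs and 80.5% (65.1 to 91.2) over 41 UMIs.

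Gpi1, Aldoa and Tpi1 carry sugar phosphates through the upper steps of the pathway. Each was lower in Ery 6 than in Ery 1, though not by the same course. Gpi1 (glucose phosphate isomerase, chr7:34201327-34230336) had 327 and 312 CPM in Ery 1 and 16.7 and 9.79 CPM in Ery 6, 19.6-fold (15.98 to 24.3) and 31.9-fold (26.0 to 39.5) lower. It was already lower in Ery 1 than in HSPC, where it had 493 and 484 CPM. Its remaining level in Ery 6 is near the 13.9 and 6.42 CPM that free RNA could supply there at most.

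Free RNA from broken cells enters every droplet, and its makeup was read from barcodes with 1 to 50 UMIs. The largest share it can have in a subcluster was taken from genes that erythroid cells do not use (Alb, Afp, Mpo, Elane and Pf4). It came to 7.88% of the UMIs of Ery 6 in library 1 and 4.43% in library 2. For HSPC and the other cells outside the erythroid line, the limit was taken from Hbb-bs, an adult globin gene, as if all of its UMIs there came from free RNA.

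Aldoa, the aldolase that splits the sugar bisphosphate (chr7:126795234-126800994), had 931 and 881 CPM in Ery 1 and 96.6 and 51.1 CPM in Ery 6. That is 9.64-fold (8.84 to 10.5) and 17.2-fold (15.8 to 18.9) lower, with up to 42.3 and 19.1 CPM in Ery 6 that free RNA could supply. Outside globin it was lowest in Ery 5, at 184 and 152, and stood at 230.4 and 237 in Ery 6.

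Tpi1, triose phosphate isomerase (chr6:124810586-124814158), declined later than Gpi1 and Aldoa. It had 897 and 820 CPM in Ery 1, 814 and 743 in Ery 2, 460 and 388 in Ery 3 and 55.5 and 28.9 in Ery 6. The ratio of Ery 1 to Ery 6 was 16.2-fold (14.4 to 18.1) and 28.4-fold (25.2 to 32.1). Free RNA could supply at most 31.6 of the 55.5 and 15.6 of the 28.9 CPM of Tpi1 in Ery 6, and with it subtracted, an alternative added after the data were seen, the log2 ratio of Ery 6 to Ery 1 over both libraries went from -4.48 to -5.62. From Ery 1 to Ery 2, Tpi1 had a ratio of 0.908 (0.880 to 0.936) and 0.906 (0.876 to 0.937), while Aldoa, with 575 and 593 CPM in Ery 2, had 0.617 (0.597 to 0.639) and 0.674 (0.651 to 0.698).

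Pgk1, which makes the first ATP of the lower steps (chrX:106187100-106203699), had a lower CPM in Ery 6 than in Ery 1 in both libraries, at very different levels. In library 1 it had 275 CPM in HSPC, 186 in Ery 1, 89.8 in Ery 3, 14.4 in Ery 5 and 16.7 in Ery 6, 11.2-fold (9.08 to 13.9) below Ery 1. In library 2 it had 5.60 CPM in Ery 1 (52 UMIs) and 0.808 in Ery 6 (8 UMIs), a 6.94-fold (3.27 to 16.9) difference. Outside globin the libraries did not share a decline. In the 10 groups by globin share described below, Pgk1 outside globin was 181 in the first and 19.3 in the tenth group of library 1. In library 2 it was 5.67 in the first and 6.76 in the tenth, so the ends of the order showed no decline there. Eno1, the enolase before pyruvate kinase (chr4:150236708-150248879), declined in each library on its own level. It had 769 CPM in Ery 1 and 105 in Ery 6 of library 1, a 7.30-fold (6.72 to 7.95) difference. In library 2 it had 142 and 10.8 CPM, a 13.1-fold (10.8 to 16.1) difference. Outside globin the same contrast had ratios of 0.323 and 0.346, so the relative decline of Eno1 was alike in both libraries although its level was not.

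Bpgm (ENSMUSG00000038871, chr6:34476356-34505136) was the member with the opposite course. It had 34.0 and 31.0 CPM in Ery 1, 54.5 and 59.6 in Ery 2, 65.8 and 50.1 in Ery 3, 76.6 and 43.7 in Ery 4, 100.3 and 44.7 in Ery 5, and 716 and 375 in Ery 6. In library 1 every step was upward, whereas in library 2 the CPM was lower in Ery 3 and Ery 4 than in Ery 2 and level from Ery 4 to Ery 5, with a ratio of 1.02 (0.878 to 1.19). Outside globin each step was upward in both libraries, from 34.4 and 31.8 in Ery 1 through 120 and 102 in Ery 4 and 205 and 168 in Ery 5 to 1708 and 1743 in Ery 6.

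The largest step of Bpgm was the last. In CPM, Ery 6 was 7.14-fold (6.34 to 8.07) and 8.38-fold (7.39 to 9.54) above Ery 5, and 21.0-fold (18.8 to 23.6) and 12.1-fold (10.7 to 13.7) above Ery 1. Outside globin the contrast with Ery 1 was 49.6-fold and 54.9-fold, and per cell it was 3.74-fold and 3.94-fold, although a cell of Ery 6 held far fewer UMIs than a cell of Ery 1 (medians of 4378 and 7883 against 26146 and 25977). Bpgm UMIs thus became more frequent in absolute number per cell as well as in share. Free RNA could supply at most 13.7 and 4.77 CPM of Bpgm in Ery 6, and 11.8 and 8.47 CPM in Ery 1.

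Single cells showed the same step. Bpgm averaged 0.896 and 0.802 UMIs per cell in Ery 1, 0.590 and 0.444 in Ery 5, 3.35 and 3.16 in Ery 6 and 5.34 and 5.12 in EryP. The share of cells with 5 or more Bpgm UMIs was 0.402% and 0.169% in Ery 5, 25.7% and 23.7% in Ery 6 and 51.2% and 50.8% in EryP. In Ery 6, 16.9% and 15.99% of the cells had no Bpgm UMI. Whether these cells lacked Bpgm RNA or were only counted less deeply was not tested. With every cell thinned to 3600 UMIs, Bpgm was detected in 9.87% and 9.47% of Ery 1 cells and in 79.7% and 62.5% of Ery 6 cells, against 54.4% and 54.0% and 83.1% and 84.0% unthinned. Thinning left out 237 of the 1218 Ery 6 cells of library 1 and no Ery 6 cell of library 2.

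Ordering the cells of Ery 1 to Ery 6 by their globin share, in 10 groups of equal size per library, gave a course that did not use the subcluster names. Bpgm outside globin was 36.4 and 36.2 in the group with the least globin and 85.1 or more from the fifth group on. It reached 442 and 533 in the eighth group, 1286 and 1363 in the ninth and 3147 and 3371 in the tenth. The cells with the most globin RNA therefore had the most Bpgm, in nearly the same measure in both libraries.

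Bpgm is a relative of Pgam1, the phosphoglycerate mutase of the main pathway, and the balance between them turned over. Bpgm held 9.85% (8.87 to 10.9) and 9.33% (8.33 to 10.4) of their UMIs in Ery 1, 44.7% and 40.2% in Ery 3, 60.8% and 58.6% in Ery 5 and 94.3% (93.6 to 94.96) and 95.6% (94.9 to 96.2) in Ery 6. Pgam1 itself was 7.18-fold and 17.5-fold lower in Ery 6 than in Ery 1 in CPM. In HSPC the Bpgm share was 6.55% (5.46 to 7.78) and 7.11% (5.86 to 8.53), and in EryP it was 97.6% (96.4 to 98.5) and 97.4% (95.8 to 98.5).

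**Figure D3:**
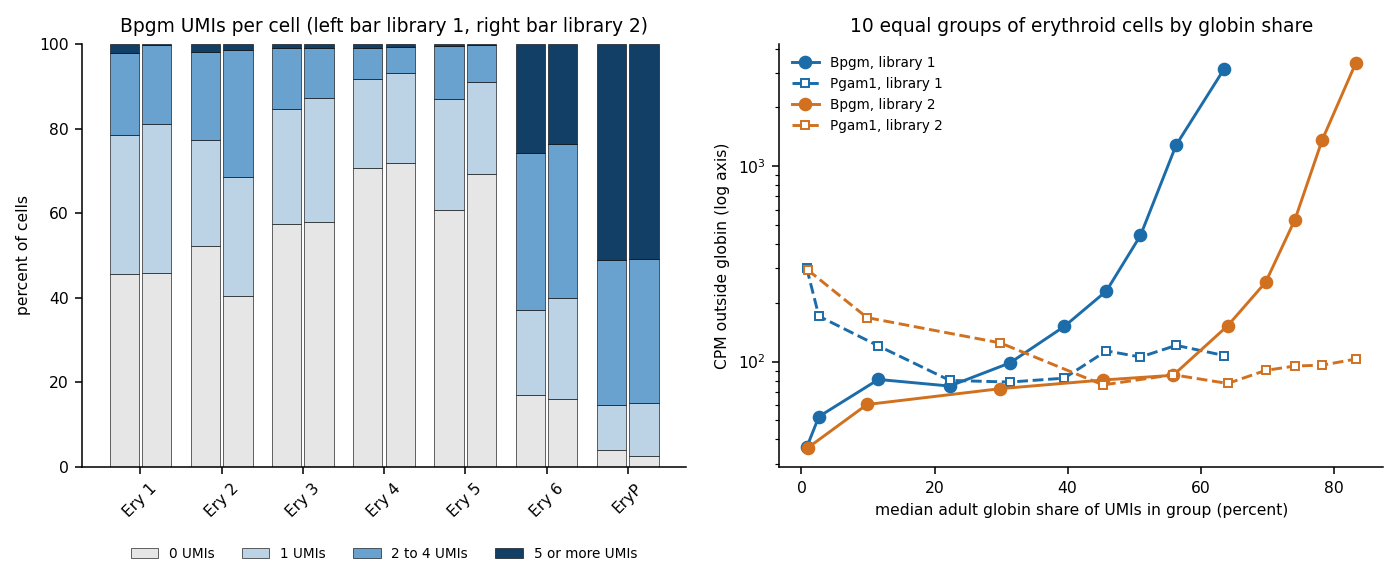
Left, percent of cells with 0, 1, 2 to 4, or 5 or more Bpgm UMIs in Ery 1 to Ery 6 and EryP, with library 1 as the left and library 2 as the right bar. Right, Bpgm and Pgam1 in CPM outside globin (log axis) in 10 groups of erythroid cells ordered by globin share, per library. Cells with 5 or more Bpgm UMIs were under 3% up to Ery 5 and reached 25.7% and 23.7% in Ery 6, and Bpgm passed Pgam1 toward the globin-rich end.

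Over all populations Bpgm was highest in EryP, at 948 (887 to 1012) and 626 (577 to 678) CPM. EryP exceeded Ery 6 1.32-fold (1.23 to 1.42) and 1.67-fold (1.53 to 1.82), and 2.38-fold and 2.05-fold outside globin. HSPC, at 34.8 and 33.9 CPM, and Ery 1 were neighbours that did not differ beyond counting error, with a ratio of Ery 1 to HSPC of 0.978 (0.792 to 1.21) and 0.914 (0.729 to 1.15). Mk had 54.5 and 32.5 CPM, above HSPC and Ery 1 in library 1 and near them in library 2. The lowest values were those of EC, Hepa, G and Mo/KC, between 14.7 and 26.9 CPM. Much of these low values could be free RNA, whose limit for Bpgm lay between 5.45 and 25.4 CPM in EC, Hepa, G and Mo/KC. The highest limit, 25.4 of 26.7 CPM, was that of EC in library 1. In HSPC the limit was 13.2 and 7.13 CPM.

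Pyruvate kinase changed from Pkm to Pklr within Ery 1 to Ery 4. Pklr (ENSMUSG00000041237, chr3:89136122-89146815) has 2 annotated starts. Its upstream start is known as the erythroid one and its downstream start as the liver one. The 250 bases before each start were searched on both strands for GATA-type motifs (AGATAA or TGATAA or AGATAG or TGATAG), which GATA1, the main erythroid transcription factor, is known to bind. The windows of Pklr are shown here because its 2 starts are known as an erythroid and a liver one. They lie on the plus strand (GRCm38, RefSeq starts) at chr3:89135892-89136141 and chr3:89136373-89136571, the latter ended before the first annotated exon base. Capitals mark a match.
Pklr upstream start: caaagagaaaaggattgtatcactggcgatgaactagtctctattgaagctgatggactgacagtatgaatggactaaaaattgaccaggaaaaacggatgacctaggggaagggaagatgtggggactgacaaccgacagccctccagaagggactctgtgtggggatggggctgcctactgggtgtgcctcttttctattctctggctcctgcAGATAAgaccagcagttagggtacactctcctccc
Pklr downstream start: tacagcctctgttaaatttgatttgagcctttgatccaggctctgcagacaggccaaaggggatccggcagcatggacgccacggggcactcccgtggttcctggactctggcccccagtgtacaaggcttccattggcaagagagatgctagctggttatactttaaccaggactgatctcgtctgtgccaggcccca

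The upstream window held 1 match, beginning 35 bases before the start that the window precedes, and the downstream window held none. The RefSeq gene span given above begins at 89136122, inside the upstream window and before that start. Of all 32851 promoter windows of this length, 26.5% held a GATA-type match, against 3 of the 17 windows of the members (1 each of Pklr, Pkm and Aldoa). The letters CCNCNCCC, which the erythroid factor KLF1 is known to bind, were found in 14 of the 17 windows and in 45.9% of all windows, with Pklr the member that had none. The letters ACGTG, the core of the hypoxia response element, were found in 5 of the 17 windows (of Hk2, Aldoa, Pgk1 and Pkm) and in 16.6% of all windows. The windows of starts 2 and 3 of Eno1 overlap, as do those of starts 2 and 3 of Aldoa. Some matches were therefore counted in both windows of such a pair. A match is only a match of letters, and the counts, which are per gene, cannot tell the 2 starts of Pklr apart.

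Pklr was near the free RNA level in HSPC, at 4.93 and 5.76 CPM against a limit of 7.46 and 5.14. It had 97.4 and 78.5 CPM in Ery 1, 19.8-fold (12.3 to 34.1) and 13.6-fold (8.56 to 23.1) more than in HSPC. It then had 208 and 151 CPM in Ery 2, 239 and 155 in Ery 3, 183 and 104 in Ery 4, 59.6 and 29.7 in Ery 5 and 90.8 and 42.5 in Ery 6. Ery 3 was the highest subcluster in both libraries, though in library 2 it did not differ from Ery 2 beyond counting error, with a ratio of 1.03 (0.954 to 1.11).

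The late course of Pklr depended on the scale. In CPM, Ery 6 was 1.07-fold (0.963 to 1.20) and 1.85-fold (1.64 to 2.09) below Ery 1, whereas outside globin it was 2.20-fold and 2.46-fold above it. Outside globin the peak was in Ery 4, at 287 and 243, with 122 and 111 in Ery 5 and 217 and 198 in Ery 6. Ery 5 was thus lower than both of its neighbours on either scale in both libraries.

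Pkm (ENSMUSG00000032294, chr9:59656576-59679372) went the other way from the start. It had 959 and 944 CPM in HSPC, 465 and 468 in Ery 1, 212 and 240 in Ery 2, 62.9 and 75.5 in Ery 3, 24.1 and 18.8 in Ery 4, 14.7 and 9.90 in Ery 5 and 23.9 and 13.7 in Ery 6. Ery 6 was 19.5-fold (16.4 to 23.3) and 34.1-fold (28.8 to 40.8) below Ery 1. From Ery 5 on, the level came close to what free RNA could supply at most, which was 21.9 and 9.87 CPM in Ery 5 and 22.2 and 10.2 CPM in Ery 6. In Ery 4 this limit was 19.2 and 9.43 CPM.

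The Pklr share of Pklr and Pkm UMIs followed from both courses. It was 0.511% (0.298 to 0.817) and 0.606% (0.360 to 0.957) in HSPC, 17.3% (16.3 to 18.3) and 14.4% (13.4 to 15.3) in Ery 1, 49.6% (48.0 to 51.2) and 38.6% (36.9 to 40.2) in Ery 2, and 79.2% (77.5 to 80.8) and 67.3% (65.1 to 69.4) in Ery 3. As measured, it was highest in Ery 4, at 88.3% (86.7 to 89.8) and 84.7% (82.7 to 86.5). In Ery 5 it was 80.2% (74.3 to 85.3) and 75.0% (68.9 to 80.4), and in Ery 6 79.2% (75.9 to 82.2) and 75.6% (71.8 to 79.1). The order of the subclusters up to Ery 4 was the same in both libraries and exceeded counting error at each step, while Ery 5 and Ery 6 could not be separated. From Ery 1 to Ery 4 the share was lower in library 2, with intervals that did not overlap those of library 1. The libraries thus differed there by more than counting error.

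The share of free RNA itself was 25.9% (22.8 to 29.2) and 25.2% (21.8 to 28.9), below the share of every subcluster from Ery 2 on. With free RNA subtracted at the limit set by the marker genes, the Pklr share in Ery 6 was 98.0% in library 1 and 91.7% in library 2. The same subtraction gave 97.3% and 91.5% in Ery 4 and 100% and 99.9% in Ery 5. The peak in Ery 4 thus held for the measured share only. In Ery 6, a larger subtraction was also made. At a subtraction of 10% of all UMIs no Pkm was left there. The measured share in Ery 6 was thus lower than either corrected one.

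**Figure D4:**
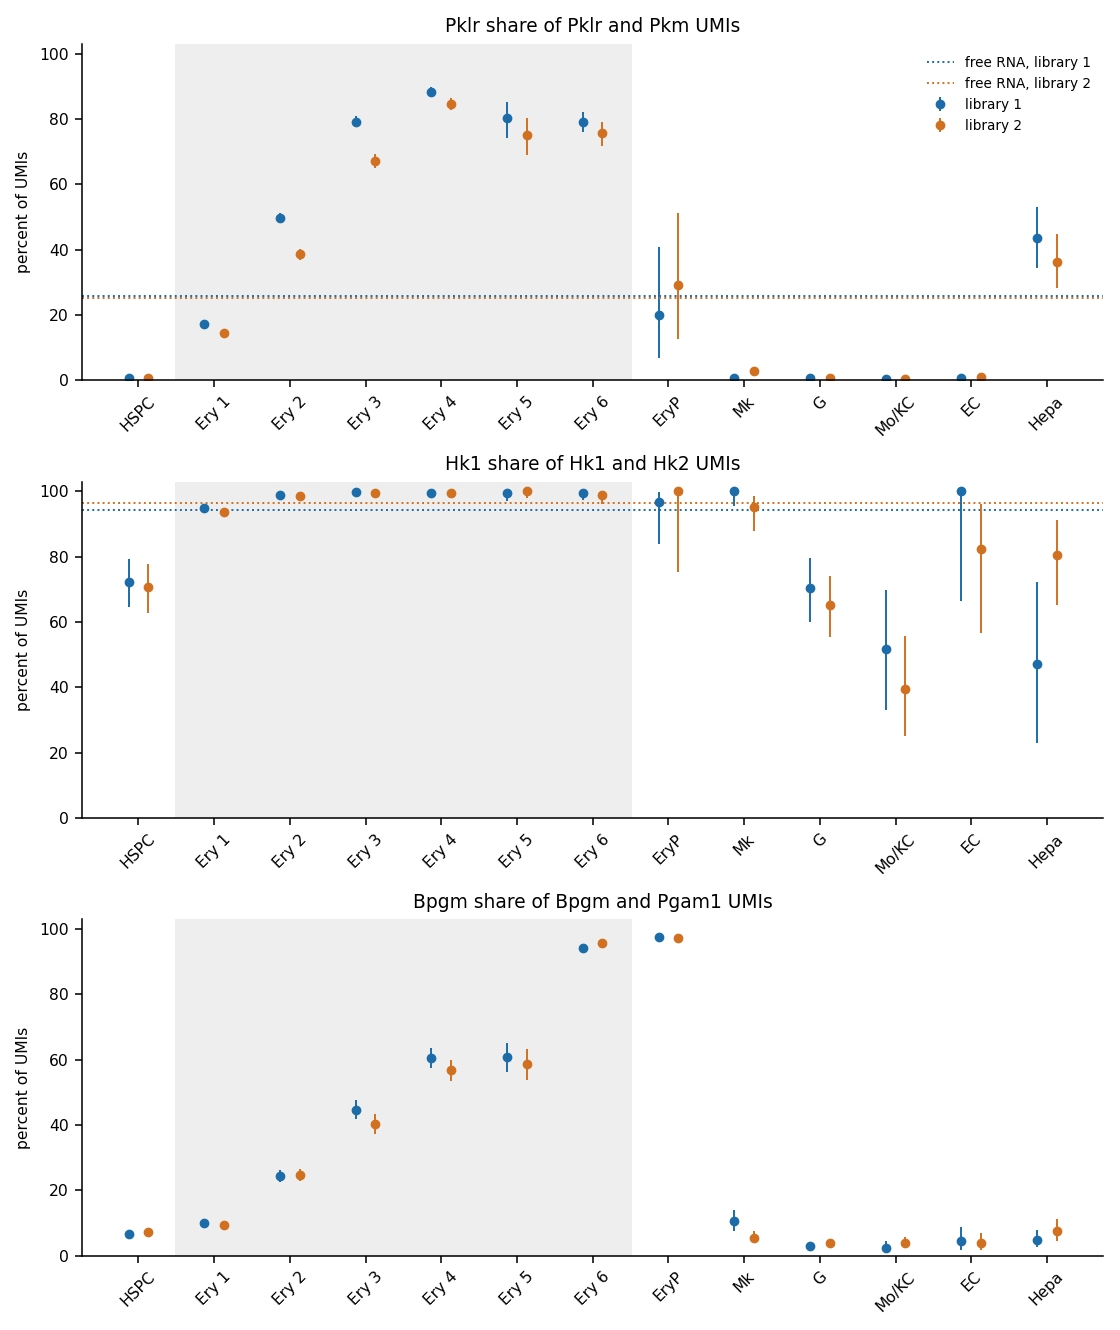
Isozyme shares in percent of UMIs of the genes named above each panel, by population and library, with exact 95% binomial intervals, Ery 1 to Ery 6 shaded and dotted lines at the share of free RNA in the upper panels. The Pklr share climbs from under 1% in HSPC to 88.3% and 84.7% in Ery 4, the Hk1 share is above 90% in all erythroid subclusters and EryP, and the Bpgm share reaches 94.3% and 95.6% in Ery 6.

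In the order by globin share, the Pklr share was 20.3% and 18.1% in the first group, 88.3% and 87.6% in the fifth and 65.96% (57.5 to 73.7) and 54.5% (44.2 to 64.6) in the tenth. Pklr outside globin was 110 and 96.9 in the first group, highest in the fourth group of library 1, at 326, and in the fifth of library 2, at 260, and 128 and 91.2 in the tenth. Hk1 outside globin kept between 88.7 and 133 in the first 9 groups and was 59.2 and 49.0 in the tenth. Among Bpgm, Pklr and Hk1, Bpgm alone was highest in the cells with the most globin, while Pklr and Hk1 were lower there than in the middle of the order.

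**Figure D5:**
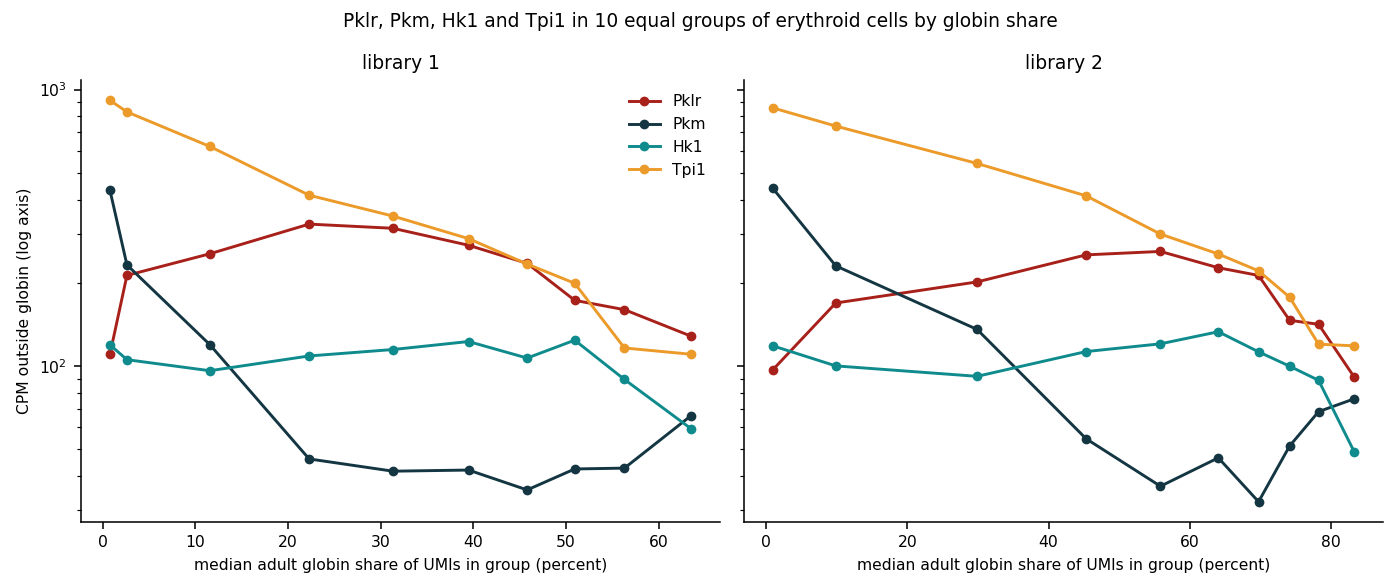
Pklr, Pkm, Hk1 and Tpi1 in CPM outside globin (log axis), in 10 groups of the cells of Ery 1 to Ery 6 ordered by globin share, per library. Pklr passes Pkm between the second and the third group in both libraries and is lower in the last groups than in the middle ones. Hk1 is lowest in the last group, and Tpi1 declines along the order.

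Many Ery 2 cells held both pyruvate kinases. Both genes had UMIs in 58.5% and 67.3% of Ery 2 cells. After thinning to 3600 UMIs, which left out 155 of the 557 Ery 2 cells of library 1 and none of library 2, the values were 24.1% and 15.3%, against 25.9% and 16.6% if the detection of each gene were independent of the other. Cells with Pklr and cells with Pkm were thus not separate sets in Ery 2. In Ery 4, 3.07% and 2.33% of thinned cells had both, against 3.204% and 2.19% if independent. Doublets were removed by sorting before encapsulation, according to the protocol, and not again here.

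Among the other cells, Hepa had the highest Pklr level, at 78.1 (58.0 to 103.0) and 61.7 (45.8 to 81.4) CPM, and a Pklr share of 43.5% (34.3 to 53.0) and 36.2% (28.2 to 44.8), over 33 and 31 cells. Its free RNA limit for Pklr was 8.54 and 8.02 CPM. Mk had 5.19 and 25.6 CPM against a limit of 7.20 and 9.77, a difference between the libraries. G and Mo/KC lay between 2.95 and 7.93 CPM, at or near their limits of 5.24 to 7.96 CPM. Pkm had 1729 and 1316 CPM in EC, 1434 and 1364 in Mo/KC and 1169 and 1058 in G, with EC highest in library 1 and Mo/KC in library 2. Hepa had 102 and 109 CPM of Pkm.

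At the entry into the erythroid line, the members took different courses. Of 8 members tested between Ery 1 and HSPC, Pkm was over 2-fold lower in both libraries (background 11.2%), by 2.06-fold (1.97 to 2.16) and 2.02-fold (1.92 to 2.11), and Hk1 and Pklr were over 2-fold higher (background 5.39%). Pklr, with 4.93 and 5.76 CPM in HSPC, passed the filter of 10 CPM only through Ery 1. Its call was thereby fixed in advance and cannot be weighed against the background. Tpi1 was 1.46-fold and 1.49-fold higher, Gpi1 was 1.51-fold and 1.55-fold lower, and Aldoa differed little, at 1.04-fold (0.996 to 1.08) and 1.08-fold (1.03 to 1.12). Both isozyme choices thus moved at this step, toward Hk1 and toward Pklr.

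Among the members tested, primitive erythroblasts were more than 2-fold apart from Ery 6 in Pklr and, outside globin, in Bpgm. In CPM, Bpgm was also higher in EryP, but by less than 2-fold. EryP had 5 and 7 Pklr UMIs, or 5.22 and 7.25 CPM against a free RNA limit of 6.26 and 2.49, and was 17.4-fold (7.41 to 53.8) and 5.86-fold (2.82 to 14.7) below Ery 6. Of 7 members tested in this contrast, Pklr was the member over 2-fold lower in CPM (background 23.7%) and none was over 2-fold higher (background 3.34%). Outside globin Pklr was lower (background 13.4%) and Bpgm higher (background 9.33%). Pklr, with 5.22 and 7.25 CPM in EryP, passed the filter of 10 CPM only through Ery 6. Its call on either scale was thereby largely fixed in advance and cannot be weighed against the background. The Pklr share in EryP, 20% (6.83 to 40.7) over 25 UMIs and 29.2% (12.6 to 51.1) over 24, could not be separated from that of free RNA. Pkm in EryP, at 20.9 and 17.6 CPM, compared with a limit of 17.9 and 7.40. Hk1 had 32.4 and 13.5 CPM there, and its ratio to Ery 6 was 0.881 (0.584 to 1.29) and 0.721 (0.377 to 1.26).

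The other glycolytic genes were counted from fixed lists. Of 19 further isozymes and single enzymes of the pathway, 6 passed the filter and all 6 were over 2-fold lower in Ery 6 than in Ery 1 in CPM, outside globin and per cell (Adpgk, Pfkl, Pfkm, Gapdh, Pgam1 and Ldha), where 73.4%, 49.7% and 92% of all genes were lower. Ldha, which turns pyruvate into lactate, had 2344 and 2186 CPM in Ery 1 and was 34.1-fold and 58.1-fold lower in Ery 6. Gapdh was 5.89-fold and 11.0-fold lower, and outside globin its ratio was 0.400 and 0.413. Among the phosphofructokinases, which set the pace of the pathway, Pfkl held 79.3% (77.3 to 81.3) and 75.6% (73.0 to 78.0) of UMIs in Ery 1 and 86.7% (80.4 to 91.6) and 90.7% (83.6 to 95.5) in Ery 6. Pfkp held 32.5% (25.2 to 40.5) and 32.0% (25.2 to 39.5) in G.

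Of 6 regulators, 1 passed the filter. Minpp1, a phosphatase that can act on bisphosphoglycerate, was 9.88-fold and 15.9-fold lower in Ery 6 than in Ery 1 in CPM. Its ratio outside globin was 0.239 and 0.285. Of all genes, 73.4% in CPM and 49.7% outside globin were over 2-fold lower. The direction of Minpp1 was thus opposite to that of Bpgm but was the common one in CPM.

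In the pentose phosphate pathway, which branches from glycolysis and supplies NADPH, 7 of 8 genes passed. In CPM 5 were lower and none higher, while outside globin 3 were lower (Pgd, Pgls and Rpia) and 2 higher. Over all genes 73.4% were lower in CPM, and 49.7% were lower and 17.5% higher outside globin. The higher genes were Taldo1 (transaldolase), with ratios of 4.88 and 5.13, and G6pdx (glucose-6-phosphate dehydrogenase), with ratios of 2.01 and 2.21. Among 12 genes for the fate of pyruvate, 10 passed, of which 8 were lower in CPM, near the share of all genes. Outside globin 4 were lower (Pdha1, Dlat, Pdk1 and Slc16a3) and 2 higher, namely Mpc2, a subunit of the mitochondrial pyruvate carrier, at 3.08 and 3.22, and Slc16a1, a lactate transporter, at 3.91 and 3.74, counts again near the shares of all genes. The 2 lactate transporters thus went opposite ways outside globin, since Slc16a3 had ratios of 0.132 and 0.0989.

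Genes with a pattern like that of Pklr or Bpgm were listed by the correlation of log2(CPM + 1) over 13 populations, taken as the lower of both libraries, among 4420 genes with 50 CPM or more in some population. The points share libraries, depth and the globin share, so these values are descriptions. For Pklr the 5 closest were Bola3 (0.95), Hebp1 (0.95), Mrap (0.94), Acp1 (0.92) and Klf1 (0.91). For Bpgm they were Hsd3b6 (0.87), Cfap57 (0.83), Lmx1a (0.83), Pdzk1ip1 (0.83) and Hbb-bh1 (0.82). Between Pklr and Bpgm the value was 0.029, so the pattern of one said little about that of the other.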

How the data were processed

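Single-cell suspensions of the E12.5 liver were counted on a 10x Chromium system. The authors made the deposited counts, whole UMI counts per gene and cell barcode, with bcl2fastq 2 and Cell Ranger 2.1.1 against mm10 and clustered the cells with Seurat 3.2.0 (submitters' processing notes). The header of the library 1 matrix names software version 3.0.0. Cell types and subclusters came from the deposited cell table, and only its 5480 and 5057 cells were used. The members and the gene lists were chosen with earlier results of these data known. UMIs were summed per population and library and divided by all UMIs of the population (CPM) or by those outside globin. UMIs are not scaled to transcript length, so isozyme shares are shares of UMIs, and whether only transcript ends were read was not given in the sources used here. Ratios were taken among genes with a mean of at least 10 CPM over the populations compared, in each library, and called when over 2-fold in both. Since both libraries are technical replicates of 1 liver, no test was made. Intervals were exact (Poisson for CPM, Clopper-Pearson for shares, conditional binomial for ratios, 95%). Free RNA was read from barcodes with 1 to 50 UMIs. Scripts used Python 3.11.15, numpy 2.4.6, pandas 2.3.3 and scipy 1.17.1, and were tested on simulated data. Named genes were the 10 members, genes of 4 fixed pathway lists and the 5 genes most like Pklr and Bpgm. Alternatives changed the cell filter, free RNA, grouping, scale, threshold and expression filter. Some isozyme shares are not reported here.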

Additional observations from a re-analysis of the deposited data

How the results depend on the processing

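For values of both libraries summed, the Pklr share in Ery 6 was 77.5% and in Ery 1 15.9%, the Hk1 share in Ery 6 was 99.2%, the log2 ratio of Bpgm (Ery 6 over Ery 1) was 3.94, and 6 of 8 members were over 2-fold lower in both libraries. With each library on its own these were 75.6% to 79.2%, 14.4% to 17.3%, 98.9% to 99.5% and 3.60 to 4.40. The count of lower members was 7 of 9 in library 1 and 6 of 8 in library 2. Cells with at least 1000 genes and under 10% mitochondrial UMIs gave a Pklr share in Ery 6 of 82.8% and a Bpgm log2 ratio of 3.08. This filter left out most Ery 6 cells, whose median was 761.5 and 710 genes, against 4536 and 4393 in Ery 1. These values therefore describe a minority of Ery 6. Subtracting free RNA at 10% gave 100% for Pklr, 100% for Hk1 and 4.74 for Bpgm. Subtracting it at the share set by markers of other cells, an alternative added after seeing the data, gave 95.04% for Pklr and 99.7% for Hk1. In 6 groups by globin share in place of subclusters, the Pklr share was 25.9% in the first and 65.6% in the last, and the Hk1 share 98.8% in the last. No free RNA was subtracted in that setting. The Bpgm log2 ratio was 5.70 outside globin and 1.94 in UMIs per cell. The cause of these shifts was not tested. Over all settings, the count of lower members ranged from 5 of 8, outside globin, to 8 of 10, with no expression filter and 1 CPM added. The Bpgm log2 ratio was 1.94 or more in every setting. The shares and the count of lower members have no direction that could be reversed. Of the single members, Pklr changed direction, from -2.56 to 1.21 on the log2 scale over 10 settings, and the other 9 kept theirs wherever a ratio could be formed. Apart from the settings of a single library, these ratios were of both libraries summed, also for Pgk1 and Eno1. For Pgk1 the summed value, -3.90, lay outside those of library 1 (-3.48) and library 2 (-2.79). Of 10 thinned shares of cells, 9 moved without thinning and 9 with thinning to 7200 UMIs. No paired analysis was possible because both libraries belong to a single group. The liver is 1 animal, so no value here measures spread between animals, and depth limits Hk2 in erythroblasts, Pgk1 in library 2 and Pklr in EryP.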
